A study of Mus musculus with 6 samples.

Results

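Multipotent cultures derived from mouse spermatogonial stem cells (mSSC) were compared with the unipotent germ-line stem cell cultures (SSC) from which such colonies arise. The comparison takes 2 mSSC arrays and 2 SSC arrays, 4 of the 6 arrays of the study, chosen by their labelled cell type, and covers 18194 named genes. The remaining 2 arrays hold cells labelled as an intermediate state (iSSC), which enter the model only to help estimate the spread between replicates. All cells came from male ICR mice 3 to 5 days old, with no transgene, knockout or drug treatment named for any group. Testis cells were grown on gelatin in serum-free germ stem cell medium, and clumps from early (0 to 1) or middle (9 to 10) passages were moved onto mitomycin-treated mouse embryonic fibroblast feeders. Flattened or embryonic-stem-like colonies then stayed in that medium or went into a serum-free medium for mouse embryonic stem cells. The labels do not say which passage or which of these media each mSSC array came from, so the label mSSC and the culture medium cannot be told apart. The move from gelatin to feeder cells is described for the colony step, so it cannot be told apart from the label mSSC either. Nor do they say whether the 2 arrays of a group came from separate cultures, so the p-values reflect the spread between the deposited arrays alone, which may be technical.

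Spermatogonial stem cells maintain sperm production in the testis: they either renew themselves or enter the path to meiosis. They depend on the growth factor Gdnf, received through Gfra1 and Ret, and on transcription factors such as Zbtb16. Pluripotent cells rest on another network, with Pou5f1, Sox2 and Nanog at its centre and Esrrb, Tfcp2l1 and the Klf factors around it in the naive state. Cultured male germ-line stem cells can give rise to colonies of the second kind.

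Values are the log2 signals of the deposited array table, so 1 unit is a 2-fold difference in signal, and each gene is read from its brightest probe set. Quartiles were taken over all 45101 probe sets of an array, with or without a gene symbol, not over the brightest probe sets alone. The lower quartile was 4.23 to 4.38 in the 6 arrays and the upper quartile 8.19 to 8.37. A level below the lower quartile is close to background, so a difference measured against it is given in log2 units only. Replicates correlated at r = 0.972 across genes in SSC and at 0.972 in mSSC, against 0.884 to 0.913 between an mSSC and an SSC array. Genes are not independent replicates, so these values only describe the arrays.

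At an adjusted p under 0.05 (limma with Benjamini-Hochberg adjustment over all 18194 genes), 3425 genes were called, 18.8% of those tested. Of these, 1495 genes (8.22% of all tested) rose in mSSC and 1930 genes (10.6%) fell. These 3 shares are the background for every count of called genes given here. The SSC and mSSC arrays did not overlap for 10661 genes, or 58.6%, so 2 arrays per group that lie apart are the common case. The smallest called change was 0.718, the median SE 0.263, and an exact permutation test of 2 arrays against 2 cannot go below p = 0.33 for a single gene. The count depended on the arrays used: it was 1966 with the 4 SSC and mSSC arrays alone. Leaving out either iSSC array gives this same fit, since a lone iSSC array holds no information on the spread. The differences then stay the same, so a call lost without an iSSC array was lost with the spread of the SSC and mSSC arrays alone. The count was also smaller without SSC replicate 1, mSSC replicate 1 or mSSC replicate 2, but not without SSC replicate 2. Scaling also mattered for direction. Centring each array on its median moved the median difference of all genes from 0.077 to 0.333 and the share of called genes that were higher from 43.6% to 63.8%, and quantile normalization moved that share to 51.3%. Small differences are therefore best read relative to that shift.

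The decreases were larger than the increases. At least a 4-fold change was reached by 405 called genes that rose and by 726 that fell, and at least a 16-fold change by 60 and by 103. By level, 520 genes that rose were already above the upper quartile in both SSC arrays, and 436 that fell were still above it in both mSSC arrays. At the other end, 95 genes that rose lay below the lower quartile in both SSC arrays, and 102 that fell lay below it in both mSSC arrays. In each direction, 11 genes went from below the lower quartile in both arrays of one group to above the upper quartile in both arrays of the other. The share of all genes at these levels was not counted. Brightest probe sets lie high against quartiles of all probe sets, so these counts only describe the called genes.

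**Figure D1:**
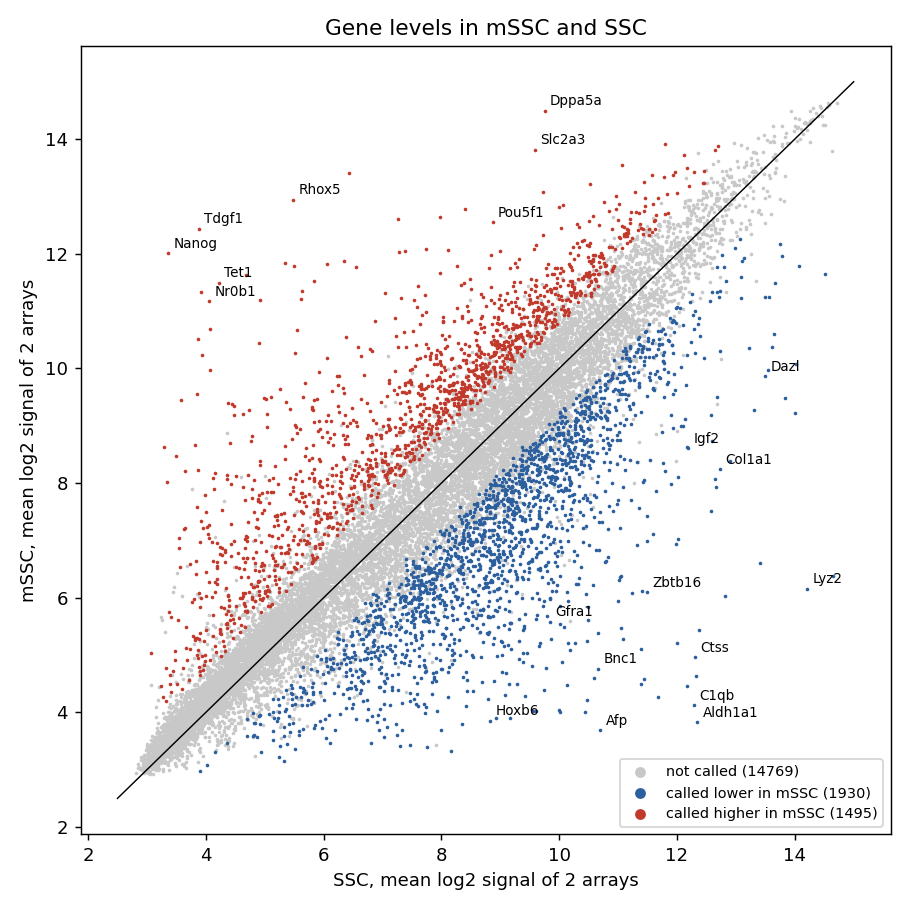
Mean log2 signal of each of the 18194 genes in the 2 SSC arrays (horizontal axis) and the 2 mSSC arrays (vertical axis), with the line of equal level. Red points are the 1495 genes called higher in mSSC and blue points the 1930 called lower; grey genes were not called.

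The largest increases were in pluripotency genes. Nanog, a homeobox factor of the core network, read 3.42 and 3.29 in the SSC arrays and 11.58 and 12.44 in the mSSC arrays, a difference of 8.66 ± 0.33 (SE, n = 2 arrays per group, adjusted p = 0.000214). Both SSC values are near background and both mSSC values are among the bright genes, and the iSSC arrays, at 3.62 and 3.25, were also near background. Tdgf1, the Nodal co-receptor also called Cripto, read 4.26 and 3.51 against 12.63 and 12.23, a difference of 8.55 ± 0.30 (adjusted p = 0.000214). Tet1, an enzyme that oxidises 5-methylcytosine, read 4.22 and 4.22 against 11.62 and 11.37, a difference of 7.28 ± 0.22 (adjusted p = 0.000214). Nr0b1, a nuclear receptor of the naive network, read 3.91 and 4.21 against 10.52 and 11.83, a difference of 7.12 ± 0.42. These 4 genes were chosen among called genes whose SSC and mSSC arrays do not overlap, so their separation follows from the choice. Rhox5, an X-linked homeobox gene, rose by 7.46 ± 0.26, and Apela, a peptide hormone of the apelin receptor, by 7.41 ± 0.27. L1td1, an RNA-binding protein of embryonic stem cells, rose by 6.94 ± 0.28, Dnmt3l by 6.49 ± 0.45 and Eras, a Ras protein of embryonic stem cells, by 5.89 ± 0.72. The 15 largest increases also held genes less tied to pluripotency. Mtm1, a phosphoinositide phosphatase, rose from 6.90 and 5.95 to 13.44 and 13.38, and Mymx, a micropeptide of muscle cell fusion, from 4.23 and 3.52 to 9.94 and 11.10. Lrrc34 rose by 6.30 ± 0.25, 1700019D03Rik by 6.60 ± 0.24 and the cationic amino acid transporter Slc7a3 by 6.27 ± 0.57.

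**Figure D2:**
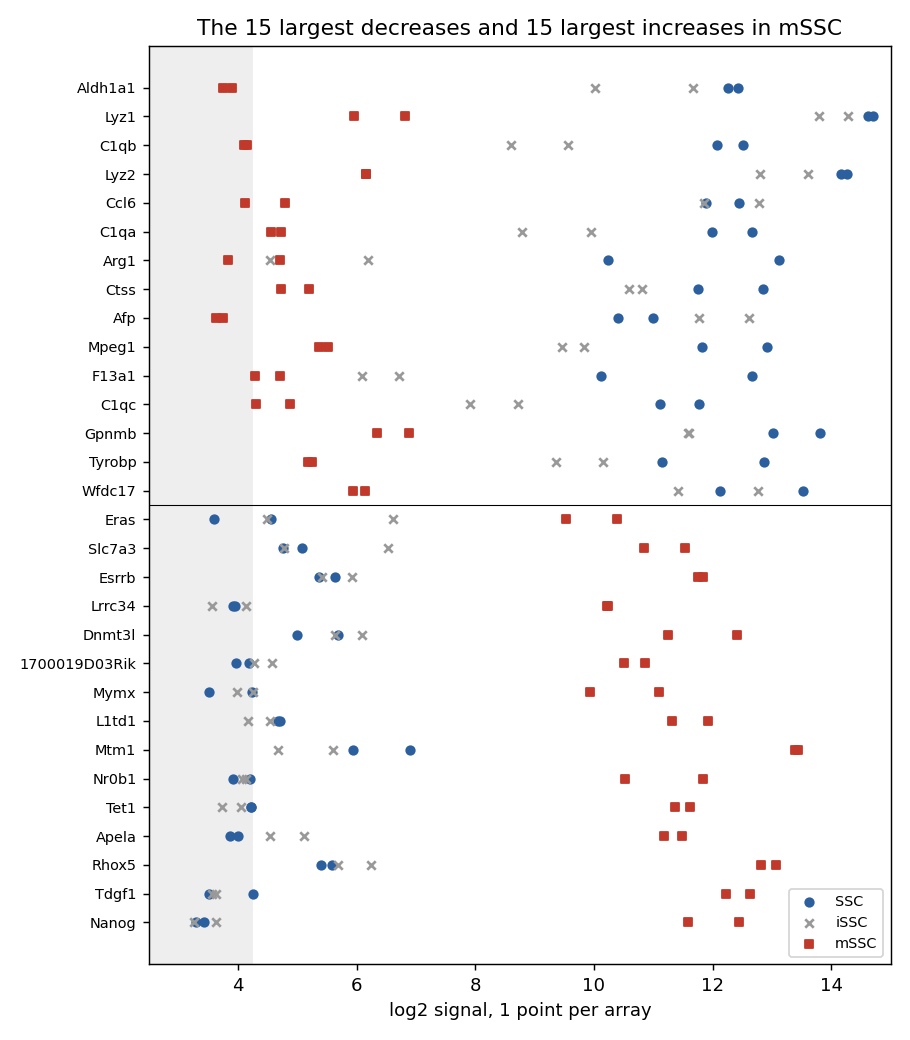
Log2 signal of the 15 genes with the largest decrease and the 15 with the largest increase in mSSC, with 1 point per array for SSC (blue circles), iSSC (grey crosses) and mSSC (red squares). The grey band ends at the lowest lower quartile of the arrays. Genes were chosen among called genes whose SSC and mSSC arrays do not overlap, so their separation follows from the choice.

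Of 20 core pluripotency genes measured, 18 rose and none fell, with a median difference of 3.94 against 0.077 over all genes. Their median level was 7.05 and 7.77 in SSC, 7.99 and 8.22 in iSSC and 11.66 and 11.82 in mSSC. The SSC arrays did not lack all of these genes. Pou5f1, the POU factor Oct4, which germ cells also express, read 9.52 and 8.22 in SSC and 12.31 and 12.79 in mSSC, a difference of 3.68 ± 0.44 (adjusted p = 0.00423). Sox2, its partner factor, read 6.04 and 7.06 against 11.78 and 11.74, a difference of 5.22 ± 0.46 (adjusted p = 0.00182). Sall4, a zinc-finger factor of germ and pluripotent cells, was already bright at 10.85 and 10.65 and read 11.73 and 12.12 in mSSC. Its rise of 1.17 ± 0.25 passed the test (adjusted p = 0.0249) but not without any 1 of SSC replicate 1 (0.06), SSC replicate 2 (0.069), an iSSC array (0.055) or mSSC replicate 2 (0.094), nor from its most variable probe set (0.11). Lin28a, which blocks maturation of let-7 microRNAs, rose by 1.56 ± 0.33, a call lost without SSC replicate 1 (0.083), SSC replicate 2 (0.068) or mSSC replicate 1 (0.096). Dppa5a, an RNA-binding protein, was among the brightest mSSC genes at 14.47 and 14.52, against 9.31 and 10.20 in SSC. Zfp42, the zinc-finger protein Rex1, rose by 4.34 ± 0.50, Fbxo15 by 4.74 ± 0.36, Utf1 by 3.83 ± 0.29 and Mybl2, a cell cycle factor, by 3.95 ± 0.20. Among smaller changes, Dppa4 rose by 2.48 ± 0.33 and Zfp296 by 1.99 ± 0.23.

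The promoters of 2 of these genes are shown because their genes belong to the network that rose and each holds the letters of a site bound by a core factor. They are the 250 bases before the RefSeq start in GRCm38.p6, 5′ to 3′ on the gene's strand, with searched motifs in capitals. In the Nanog stretch, chr6:122707315-122707564 (+ strand), ACAATG is the reverse complement of the Sox-type motif CATTGT, beginning 143 bases before the start. In the Zfp42 stretch, chr8:43307010-43307259 (- strand), ATTTGCAT is the reverse complement of the octamer ATGCAAAT, 186 bases before the start, and the other capitals are the reverse complement of the GC box GGGCGG.
Nanog: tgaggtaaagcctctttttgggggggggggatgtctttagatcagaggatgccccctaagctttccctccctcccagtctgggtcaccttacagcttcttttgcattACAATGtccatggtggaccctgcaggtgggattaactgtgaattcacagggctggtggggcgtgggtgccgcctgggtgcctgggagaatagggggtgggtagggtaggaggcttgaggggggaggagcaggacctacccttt
Zfp42: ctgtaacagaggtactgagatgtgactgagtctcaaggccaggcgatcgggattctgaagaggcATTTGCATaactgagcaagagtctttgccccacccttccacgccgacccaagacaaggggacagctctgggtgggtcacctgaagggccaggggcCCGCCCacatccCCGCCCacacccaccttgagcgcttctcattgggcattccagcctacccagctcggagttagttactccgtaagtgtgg

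Such letters are not particular to genes that rose. Both strands of 18110 RefSeq promoters (250 bases before and 50 after the start) of 14453 measured genes were searched, and no motif searched contains another. ATGCAAAT occurred in 1.39% of all promoters, 1.62% of the 1543 of genes that rose and 1.37% of the 2048 of genes that fell. CATTGT occurred in 9.40% of all promoters, 6.80% of those that rose and 7.86% of those that fell. AAGGTCA, a site of nuclear receptors such as Esrrb, occurred in 3.92%, 3.56% and 2.98%. The GC box GGGCGG occurred in 52.3%, 55.6% and 60.6%, and the TATA letters TATAAA in 9.77%, 8.17% and 8.20%. A match says only that the letters are there.

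The naive pluripotency list moved with the core list: 20 of 24 measured genes rose and 1 fell, with a median of 3.34; the 1 that fell was not called without SSC replicate 1, SSC replicate 2, an iSSC array or mSSC replicate 1. Esrrb, an orphan nuclear receptor, read 5.64 and 5.36 in SSC and 11.83 and 11.75 in mSSC, a difference of 6.29 ± 0.25 (adjusted p = 0.000214). Prdm14, a regulator of naive cells and of primordial germ cells, read 3.65 and 3.33 against 7.98 and 8.97, a difference of 4.99 ± 0.35. Both genes were separate between groups by several log2 units. The Klf factors did not move alike. Klf5 rose by 4.39 ± 0.45 and Klf2 by 3.15 ± 0.45, while Klf4, at 10.07 and 10.08 in SSC and 10.52 and 10.86 in mSSC, was not called (0.62 ± 0.23, adjusted p = 0.117), except after median centring (0.87, adjusted p = 0.041). Tbx3 rose by 4.01 ± 0.61, Tfcp2l1 by 3.48 ± 0.35, Fgf4 by 3.50 ± 0.23, Dppa3 by 2.97 ± 0.47, Nr5a2 by 1.84 ± 0.24 and Tcl1 by 1.63 ± 0.27. Tcl1, an activator of Akt, read 11.12 and 10.59 in the iSSC arrays, close to its 10.78 and 11.11 in mSSC, whereas Esrrb in iSSC was at 5.93 and 5.41, close to SSC.

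Which probe set stands for a gene changed the size of several of these differences. The genes listed next kept their calls under both other probe-set rules, whereas Sall4, as given above, did not. Taking the mean over a gene's probe sets gave 4.00 for Esrrb, 4.33 for Apela, 4.44 for Tet1, 2.45 for Utf1, 2.30 for Klf5, 2.44 for Tbx3 and 1.27 for Tfcp2l1. The averaged difference was smaller in each of these 7 genes. Taking the most variable probe set instead gave larger differences for others: 7.52 for Fgf4, 2.94 for Lin28a, 4.39 for Foxh1, 2.69 for Tcf7l1, 3.07 for Ccne1 and 3.02 for Cbs among genes that rose, and -3.83 for Lhx1, -4.78 for Ctsb, -3.44 for Hoxb3 and -5.06 for Fcgr2b among genes that fell.

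Nodal signalling, which keeps the epiblast undecided and patterns it later, was measured by 19 genes, of which 9 rose and 3 fell (median 0.61, and -0.60 when the dimmer genes were left out). Those that rose include Gdf3 and Tdgf1, already counted in the core list, and Nodal, Lefty1 and Lefty2, already counted in the naive list. The ligand Nodal read 5.82 and 5.26 in SSC and 10.58 and 10.76 in mSSC, a difference of 5.13 ± 0.28 (adjusted p = 0.000519). Its feedback inhibitors rose with it: Lefty1 by 3.61 ± 0.24 and Lefty2 by 5.70 ± 0.23. Foxh1, the partner of Smad proteins in Nodal targets, rose by 1.53 ± 0.23, and by 3.02 as the mean of its probe sets. Otx2, a factor of the formative and primed epiblast, read 3.59 and 3.57 against 10.35 and 8.56, a difference of 5.88 ± 0.54. Fgf5, the usual marker of the primed epiblast, stayed dim at 4.74 and 4.64 in SSC and 5.09 and 4.74 in mSSC (0.22 ± 0.22, adjusted p = 0.54). High Otx2 in mSSC was therefore not accompanied by a called change of Fgf5.

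Among other signalling lists, counts lay nearer the background. Of 42 Wnt pathway genes, 7 rose and 6 fell (median -0.05, which is 0.20 after median centring), and without mSSC replicate 1 the genes that fell were 3. The receptors split: Fzd5 rose by 2.40 ± 0.27 while Fzd1 fell by 2.61 ± 0.43 and Fzd2 by 1.53 ± 0.20. Tcf7l1, the repressive Tcf factor of pluripotent cells, rose by 1.74 ± 0.30, and Porcn, which acylates Wnt ligands, by 2.32 ± 0.39. Of 29 Fgf signalling genes, 5 rose and 3 fell; the 3 were 0 without SSC replicate 1 or an iSSC array, 2 without SSC replicate 2, and 1 without mSSC replicate 1 or after quantile normalization. Etv4 and Etv5, which respond to Fgf and also to Gdnf in spermatogonia, rose by 1.33 ± 0.20 and 1.92 ± 0.24, with Etv4 at 0.83 as the mean of its probe sets. In the Bmp pathway and Id list, 2 of 26 genes rose and 3 fell, with Bmp4 rising by 3.34 ± 0.39; the 3 were 1 without SSC replicate 1 and 6 without SSC replicate 2, and the 2 that rose were 1 without any single array and 4 after median centring. Of 18 genes of the Lif and Stat3 pathway, 2 rose and 4 fell, and those that fell were between 1 (without SSC replicate 1) and 6 (without mSSC replicate 2), with 2 without an iSSC array or mSSC replicate 1. Stat3 itself read 11.92 and 11.91 against 9.99 and 10.82, but its fall of 1.51 ± 0.31 (adjusted p = 0.0223) was lost without SSC replicate 1 (0.078), SSC replicate 2 (0.061), an iSSC array (0.053) or mSSC replicate 1 (0.061). Its probe sets also differ in sign, and their mean difference was -0.76 (adjusted p = 0.091).

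The germ-line programme was lower in mSSC. Of 25 spermatogonial transcription factors measured, 16 fell and 2 rose, with a median of -1.51; without mSSC replicate 1 the number that fell was 10. Zbtb16, the self-renewal factor PLZF, read 12.41 and 10.56 in SSC, 11.07 and 11.17 in iSSC and 6.07 and 6.11 in mSSC, a difference of -5.39 ± 0.55 (adjusted p = 0.00271). Sohlh1, a helix-loop-helix factor of spermatogonial differentiation, read 9.15 and 9.41 against 4.36 and 4.61, a difference of -4.80 ± 0.42 (adjusted p = 0.00172). In both genes the groups were far apart, and in Sohlh1 mSSC was near background. Glis3 fell by 4.08 ± 0.22, Dmrt1, which controls entry into meiosis, by 3.11 ± 0.34, and Lhx1, a Gdnf-responsive factor, by 1.89 ± 0.20 (-2.86 as the mean of its probe sets). Id4, a marker of stem-like spermatogonia, fell by 1.36 ± 0.26 (adjusted p = 0.017), a call lost without SSC replicate 1 (0.061) or mSSC replicate 1 (0.068) and as the mean of its probe sets (-1.06, adjusted p = 0.055). Taf4b fell by 1.46 ± 0.21, but was not called as the mean of its probe sets (-0.93, adjusted p = 0.15) or from its most variable probe set (-0.01). Sohlh2, the relative of Sohlh1, read 10.11 and 10.89 against 10.33 and 10.39 and was not called (-0.14 ± 0.29, adjusted p = 0.789); its sign turned after median centring, to 0.12. Zbtb16, Gfra1 and Dazl, defining genes of undifferentiated spermatogonia and germ cells, were bright in both SSC arrays. In bulk RNA, fewer cells of a type and less RNA per cell cannot be told apart.

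Receptors of the stem-cell niche moved unevenly: of 18 measured, 4 fell and 3 rose (median -0.66), and those that rose were 1 without mSSC replicate 1. Gfra1, the Gdnf co-receptor, read 9.56 and 10.14 in SSC and 5.45 and 5.71 in mSSC, a difference of -4.27 ± 0.31 (adjusted p = 0.0011). Ret, its signalling partner, fell by 2.80 ± 0.24, and the chemokine receptor Cxcr4 by 2.64 ± 0.40. Csf1r, which testis cultures can carry on macrophages as well, fell by 5.29 ± 0.37 (-3.30 as the mean of its probe sets). Kit, the receptor of differentiating spermatogonia and of some pluripotent cells, read 7.18 and 10.31 in the SSC arrays and 9.66 and 10.28 in the mSSC arrays. The SSC arrays lay wide apart and enclosed both mSSC arrays, and Kit was not called (1.23 ± 1.01, adjusted p = 0.455). The difference turned to -0.34 without SSC replicate 1 and was 2.79, and called (0.049), without SSC replicate 2.

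RNA regulation and transposon defence in germ cells run through small RNAs called piRNAs, bound by Piwi proteins and Tudor-domain scaffolds. Of 30 genes of this list measured, 19 fell and 1 rose (0 without SSC replicate 1, SSC replicate 2, an iSSC array or mSSC replicate 2), with a median of -2.17, and the list median was 9.64 and 10.05 in SSC and 7.72 and 7.27 in mSSC. Dazl, which controls translation in germ cells, read 13.19 and 13.79 against 9.43 and 10.29, a difference of -3.63 ± 0.36 (adjusted p = 0.00251). Both mSSC values of Dazl were still above the upper quartile. Stk31 fell by 4.99 ± 0.45, Nxf2, an RNA export factor, by 4.98 ± 0.34, Tex101, a germ-cell surface protein, by 4.50 ± 0.35 and Bnc1, a zinc-finger protein of germ cells and keratinocytes, by 5.90 ± 0.48. Several called piRNA genes fell by about 2 to 3 log2 units. Piwil2 fell by 2.05 ± 0.32, Tdrd1 by 3.23 ± 0.48, Tdrd5 by 2.75 ± 0.43 and Tdrkh by 2.88 ± 0.40. Mov10l1 fell by 2.88 ± 0.39, Asz1 by 2.78 ± 0.45 and Exd1 by 2.58 ± 0.34. Ddx25, an RNA helicase of the list, fell by 2.21 ± 0.25. Of the 30 genes measured, 10 were not called. Ddx4, the germ-cell helicase Vasa, read 9.68 and 11.59 in SSC and 8.23 and 7.80 in mSSC. Its fall of 2.62 ± 0.58 (adjusted p = 0.027) was lost without an iSSC array (0.059), mSSC replicate 1 (0.07) or mSSC replicate 2 (0.099), and its difference was -1.66 without SSC replicate 2. Mael, a piRNA factor, read 10.92 and 11.69 against 9.84 and 10.53 and was not called (-1.12 ± 0.38, adjusted p = 0.0923). The macrophage and fibroblast lists were also lower in the same mSSC arrays, and their part in the germ-line result was not tested; the signal summed over the list on the linear scale was 87235 and 51578 in SSC against 2527 and 4596 in mSSC for the macrophage genes. For the matrix and fibroblast genes it was 185168 and 119834 against 10605 and 35924, and for the germ-cell RNA list 40587 and 53845 against 10838 and 10781. The germ-cell sum in iSSC was 53049 and 38778, within the range of SSC or near it, while the macrophage sum there was already lower, at 26561 and 15409.

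The promoters of a differentiation factor and of the germ-cell helicase are shown because both genes fell and both stretches hold the E-box letters CACGTG, which read the same on both strands. Both are the 250 bases before the RefSeq start in GRCm38.p6. In the Sohlh1 stretch, chr2:25847249-25847498 (- strand), the E-box occurs 231, 211 and 192 bases before the start. In the Ddx4 stretch, chr13:112652311-112652560 (- strand), it occurs 29 bases before the start. The other capitals are GGGCGG or its reverse complement. CACGTG occurred in 8.72% of all promoters searched, 9.07% of those of genes that rose and 9.13% of those of genes that fell.
Sohlh1: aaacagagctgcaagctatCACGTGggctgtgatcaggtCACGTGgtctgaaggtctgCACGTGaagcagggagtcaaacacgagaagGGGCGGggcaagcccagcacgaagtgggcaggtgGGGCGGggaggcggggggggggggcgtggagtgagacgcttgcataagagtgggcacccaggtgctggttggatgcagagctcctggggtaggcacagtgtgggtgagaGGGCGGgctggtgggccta
Ddx4: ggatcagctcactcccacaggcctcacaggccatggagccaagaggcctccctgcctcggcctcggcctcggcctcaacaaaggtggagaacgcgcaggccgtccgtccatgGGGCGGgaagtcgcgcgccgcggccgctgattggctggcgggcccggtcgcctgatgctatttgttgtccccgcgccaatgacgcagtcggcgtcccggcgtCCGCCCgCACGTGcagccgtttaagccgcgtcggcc

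Meiotic genes were lower too. Of 33 measured, 11 fell and 1 rose (0 without SSC replicate 1), with a median of -0.98, and without SSC replicate 2 or mSSC replicate 2 the number that fell was 7 or 6. Sycp2, a protein of the synaptonemal complex that joins paired chromosomes, read 8.96 and 7.73 in SSC, 4.70 and 4.47 in iSSC and 4.23 and 3.35 in mSSC, a difference of -4.56 ± 0.47 (adjusted p = 0.00271). The iSSC arrays of Sycp2 lay with mSSC rather than with SSC. Smc1b, a meiotic cohesin, fell by 3.31 ± 0.52, Terb1, which ties telomeres to the nuclear envelope, by 3.08 ± 0.25, Brdt, a testis bromodomain protein, by 2.31 ± 0.35 (-1.11 as the mean of its probe sets) and Msh4 by 1.58 ± 0.23. Sycp1 read 10.48 and 9.56 in SSC and 7.13 and 3.94 in mSSC, and its fall of 4.48 ± 0.95 (adjusted p = 0.0232) was lost without SSC replicate 1 (0.10), SSC replicate 2 (0.052) or an iSSC array (0.051) and its difference was -2.89 without mSSC replicate 2. Stra8, the retinoic acid target that starts meiosis, averaged 11.98 in SSC, with 12.97 in the higher array, and read 8.37 and 8.40 in mSSC. Its groups did not overlap, and it was not called (-3.60 ± 1.26, adjusted p = 0.101). It was called in the 4 SSC and mSSC arrays alone (0.028), the same fit as without 1 iSSC array. The iSSC arrays of Stra8 read 7.29 and 11.30. Sycp3 was not called either (-0.88 ± 0.57, adjusted p = 0.335), with mSSC at 10.45 and 8.93.

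Chromatin genes changed member by member. DNA methylation is set by Dnmt3 enzymes, kept by Dnmt1 and oxidised by Tet enzymes; of 22 genes of this list, 6 rose and 3 fell (median 0.33). Dnmt3l, the catalytically inactive partner of the Dnmt3 enzymes, read 5.69 and 4.99 in SSC and 12.42 and 11.25 in mSSC. Dnmt3b rose by 1.73 ± 0.28 (adjusted p = 0.0103), from 9.57 and 10.27 to 11.60 and 11.69. Dnmt3a read 8.80 and 8.80 in SSC but 11.39 and 8.95 in mSSC, so that one mSSC array was high and the other near SSC, and it was not called (1.37 ± 0.71, adjusted p = 0.237); the difference was 0.15 without mSSC replicate 1 and 2.59, and called (0.0054), without mSSC replicate 2. Dnmt1 was bright in all arrays, at 11.08 and 11.11 against 10.98 and 10.97, and was not called (-0.13 ± 0.19, adjusted p = 0.698); its sign turned to 0.13 after median centring. Tet2 rose by 2.64 ± 0.66 (adjusted p = 0.0398), but with mSSC at 7.64 and 9.79 the call was lost without SSC replicate 1 (0.15), SSC replicate 2 (0.082) or an iSSC array (0.074) or from its most variable probe set (0.051), and the difference was 1.56 without mSSC replicate 2. Zfp57, which guards methylation at imprinted loci, rose by 2.62 ± 0.23. Mbd2 and Zbtb33, readers of methylated DNA, fell by 2.00 ± 0.24 and 2.04 ± 0.26.

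Polycomb proteins form PRC2, which methylates histone H3, and PRC1, which ubiquitinates H2A and compacts chromatin. Of 32 genes measured, 9 rose and 6 fell (median 0.11). The subunits did not move together. Ezh2, the main PRC2 methyltransferase, read 8.68 and 9.78 in SSC and 11.59 and 11.44 in mSSC, a difference of 2.28 ± 0.37 (adjusted p = 0.0102). Epop, a PRC2 partner of embryonic stem cells, rose by 2.42 ± 0.23, and Phf19 by 1.44 ± 0.20 (0.78 as the mean of its probe sets). Eed read 10.21 and 11.49 against 11.88 and 12.36 and was not called (1.27 ± 0.43, adjusted p = 0.0906); the difference was 0.63 without SSC replicate 1 and 1.91, and called (0.016), without SSC replicate 2. In PRC1, the chromobox protein Cbx7 rose by 2.21 ± 0.30 (1.23 as the mean of its probe sets) and Phc1 by 1.84 ± 0.24. Pcgf5 read 11.74 and 11.96 against 10.19 and 9.32 and fell by 2.10 ± 0.35 (-1.13 as the mean of its probe sets), and Bmi1, another Pcgf protein, fell by 2.02 ± 0.38 (adjusted p = 0.0162, and 0.061 without mSSC replicate 1). Pcgf6, a further Pcgf protein, rose by 1.19 ± 0.21, a call lost without mSSC replicate 2 (0.051) and as the mean of its probe sets (0.69, adjusted p = 0.21) or from the most variable of them (0.15), and their signs differ. Scml2, a Polycomb protein of the germ line, read 11.19 and 11.68 against 9.26 and 6.84; its fall of 3.39 ± 0.73 was lost without SSC replicate 1 (0.077), SSC replicate 2 (0.087) or an iSSC array (0.052) and as the mean of its probe sets (-2.46, adjusted p = 0.067), and its difference was -2.17 without mSSC replicate 2. Phc2 fell by 1.40 ± 0.28, a call lost without SSC replicate 1 (0.08), an iSSC array (0.055) or mSSC replicate 2 (0.065) or from its most variable probe set (0.058). Rnf2, the ubiquitin ligase, read 9.01 and 11.07 in SSC and 10.81 and 11.36 in mSSC and was not called (1.05 ± 0.64, adjusted p = 0.309); the difference was 0.02 without SSC replicate 1 and 2.08, and called (0.019), without SSC replicate 2. The counts were sensitive: those that fell were 3 without SSC replicate 1 or an iSSC array and 4 without mSSC replicate 1 or 2, and those that rose were 5 without mSSC replicate 2 and 6 without mSSC replicate 1.

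**Figure D3:**
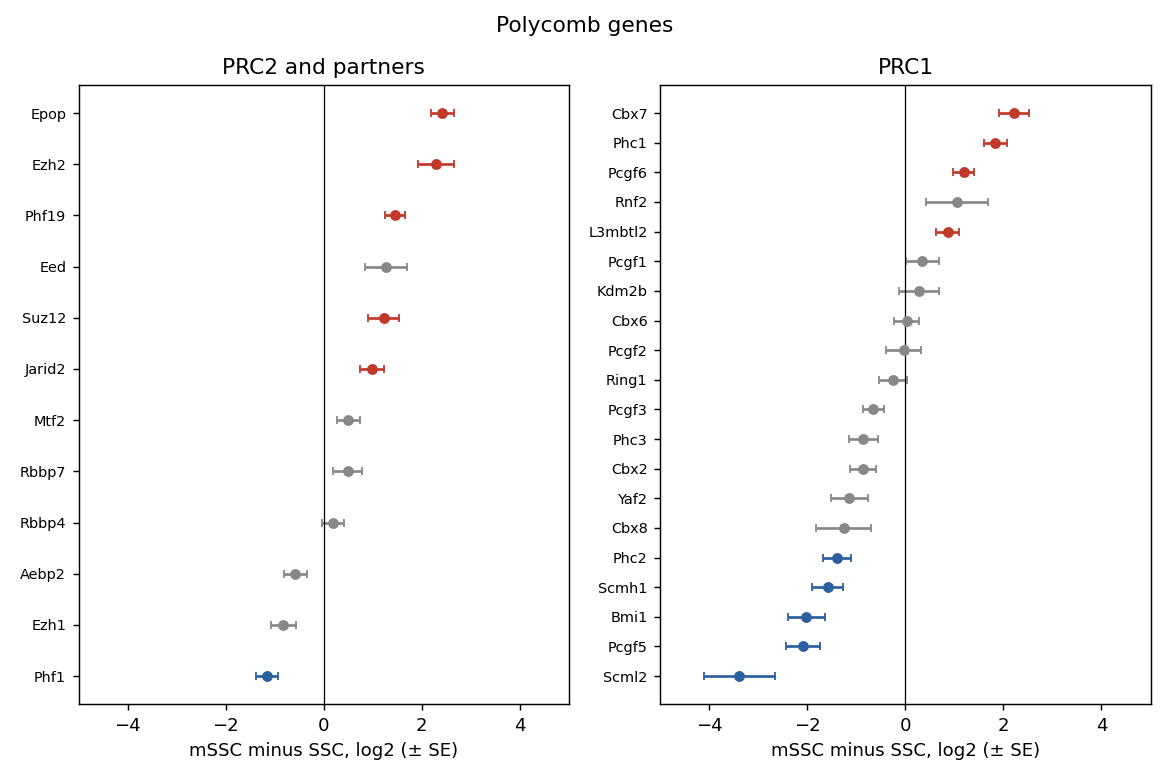
Difference between mSSC and SSC in log2 signal, with its SE, for 32 Polycomb genes, split into PRC2 with its partners (left) and PRC1 (right). Red genes were called higher, blue genes lower and grey genes were not called; Ezh2 and Epop lie at the top of PRC2, and Cbx7 and Phc1 at the top of PRC1 while Bmi1, Pcgf5 and Scml2 lie at the bottom.

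Other chromatin enzymes gave counts near the background. Of 36 histone methylation enzymes, 5 rose and 5 fell (median -0.32), and both counts were 3 without mSSC replicate 1, while those that fell were 3 without an iSSC array, after median centring or quantile normalization or under either other probe-set rule, and those that rose 3 without mSSC replicate 2. Kdm4c, an H3K9 demethylase, rose by 2.29 ± 0.20, Prdm1, the factor Blimp1 that specifies germ cells, by 2.84 ± 0.47, and Kdm6b, an H3K27 demethylase, fell by 1.63 ± 0.24 (-0.90 as the mean of its probe sets). Of 33 subunits of the BAF and NuRD remodellers, 3 rose and 2 fell; those that rose were 0 without mSSC replicate 1, 1 without an iSSC array and 2 without SSC replicate 1 or mSSC replicate 2, and those that fell were 1 without SSC replicate 1 or mSSC replicate 2 and 4 without SSC replicate 2. Smarca2, an alternative ATPase of BAF, fell by 2.78 ± 0.37 (-1.71 as the mean of its probe sets), to mSSC levels of 4.12 and 4.64.

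Growth genes were higher in mSSC. Of 31 replication and G1/S genes, 11 rose and none fell (median 0.87), and of 29 mitotic genes, 9 rose and none fell (median 0.83). These counts depended on the array left out: the 11 were 5 without SSC replicate 1, an iSSC array or mSSC replicate 2, 7 without mSSC replicate 1 and 18 without SSC replicate 2, and the 9 were 6 without SSC replicate 1 or an iSSC array and 16 without SSC replicate 2, with 14 after median centring. Gins2, part of the replicative helicase, read 8.34 and 8.56 in SSC and 11.07 and 10.94 in mSSC, a difference of 2.55 ± 0.21 (adjusted p = 0.00149). Rrm2, the regulatory subunit of ribonucleotide reductase, rose by 2.79 ± 0.41, Mcm10 by 1.86 ± 0.27, Pola1 by 1.72 ± 0.24 (0.91 as the mean of its probe sets) and cyclin E1, Ccne1, by 1.66 ± 0.28. Cdk1, the kinase that drives mitosis, rose by 1.83 ± 0.21, Aurka by 1.86 ± 0.24 (1.10 as the mean of its probe sets) and Plk1 by 1.31 ± 0.21. Among inhibitors and D cyclins, 6 of 22 genes fell and 2 rose (median -0.69); those that fell were 3 without an iSSC array, and those that rose were 1 or 0 without any single array. Ccnd2, a D cyclin of spermatogonia, read 13.10 and 12.70 against 7.79 and 8.99, a difference of -4.51 ± 0.42 (adjusted p = 0.00205). Cdkn1c fell by 2.54 ± 0.25 and Cdkn2b by 2.18 ± 0.35. Cdkn1a, the p53 target p21, stayed bright at 11.25 and 11.41; its fall of 1.36 ± 0.28 was lost without SSC replicate 1 (0.063), an iSSC array (0.052), mSSC replicate 1 (0.083) or mSSC replicate 2 (0.058), or from its most variable probe set (0.083).

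Metabolic lists also leaned to mSSC. Mouse pluripotent cells are known to break down threonine and glycine to feed one-carbon units and to use glycolysis heavily. Of 28 genes of threonine, serine and one-carbon metabolism and its transporters, 17 rose and 1 fell (median 1.17); without an iSSC array 9 rose, and without mSSC replicate 2, 10, while 2 fell without SSC replicate 2. Gldc, the glycine decarboxylase, read 6.51 and 7.90 in SSC and 10.75 and 11.01 in mSSC, a difference of 3.67 ± 0.48 (adjusted p = 0.00555). Mthfd1l, the mitochondrial enzyme that releases formate, rose by 2.66 ± 0.35, Odc1, which starts polyamine synthesis, by 2.69 ± 0.22, and the amino acid carriers Slc1a5 and Slc7a7 by 2.58 ± 0.22 and 2.83 ± 0.32. Psph rose by 1.60 ± 0.25 and Cbs by 1.59 ± 0.25. Mtr, methionine synthase, fell from 11.01 and 10.39 to 7.88 and 7.10 (-3.21 ± 0.35, adjusted p = 0.00334). Phgdh, the first enzyme of serine synthesis, was bright in both groups and not called (0.47 ± 0.26, adjusted p = 0.266).

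Of 21 glycolysis genes, 8 rose and none fell (median 0.97); 4 rose without mSSC replicate 1. Slc2a3, the high-affinity glucose transporter, read 9.87 and 9.32 in SSC, 11.64 and 10.44 in iSSC and 13.81 and 13.82 in mSSC, a difference of 4.23 ± 0.41 (adjusted p = 0.0024). Pfkp rose by 2.79 ± 0.49, Pfkm by 1.77 ± 0.27 and Hk2, the first kinase of the pathway, by 1.34 ± 0.21. Slc2a1 rose by 2.23 ± 0.44, a call lost without SSC replicate 2 (0.058) or mSSC replicate 1 (0.061). Ldha rose by 1.80 ± 0.43, a call lost without SSC replicate 2 (0.054, difference 1.16), an iSSC array (0.073), mSSC replicate 1 (0.13) or mSSC replicate 2 (0.065). Respiratory chain genes gave another picture, with 5 of 81 rising and 1 falling (0 without SSC replicate 2 or mSSC replicate 2; median 0.16), beside 8.22% and 10.6% of all genes; 13 rose after median centring, 1 without an iSSC array, 2 without SSC replicate 1 or mSSC replicate 1, and 3 without mSSC replicate 2. Cox7a1, a muscle-type subunit, rose by 1.97 ± 0.36. Of 46 cytosolic ribosomal proteins, 2 rose, Rpl12 by 1.75 ± 0.23 and Rpl14 by 1.31 ± 0.20, and 1 fell; 5 rose after median centring, and the 1 that fell was not called without SSC replicate 1 or 2, an iSSC array or mSSC replicate 1. These genes have many processed copies, so their signals are uncertain.

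Of 28 DNA repair genes, 8 rose and 3 fell (median 0.81). Without SSC replicate 1, an iSSC array or mSSC replicate 1 the number that rose was 3, and after median centring 15 rose and 1 fell; those that fell were 1 without SSC replicate 1, SSC replicate 2 or an iSSC array and 0 without mSSC replicate 2. Fancl, the ubiquitin ligase of the Fanconi pathway, was at 8.78 and 9.24 in SSC and rose by 2.10 ± 0.29 (1.20 as the mean of its probe sets).

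Among adhesion genes, E-cadherin rose and N-cadherin fell. Of 36 epithelial junction genes, 14 rose and 3 fell (median 1.02), and 9 rose without mSSC replicate 1. Cdh1, E-cadherin, which joins epithelial and pluripotent cells, read 5.47 and 6.21 in SSC, 7.68 and 7.00 in iSSC and 11.52 and 11.54 in mSSC, a difference of 5.69 ± 0.34 (adjusted p = 0.000635). Cdh2, N-cadherin, read 9.65 and 9.13 in SSC, 7.59 and 8.10 in iSSC and 4.34 and 5.42 in mSSC, a difference of -4.50 ± 0.41 (adjusted p = 0.00195). For both cadherins the iSSC arrays lay between the other groups. The tight-junction claudins rose: Cldn4 by 4.50 ± 0.42, Cldn6 by 4.06 ± 0.23 and Cldn7 by 4.58 ± 0.38. Tjp3 rose by 2.34 ± 0.40 and the polarity protein Crb3 by 1.93 ± 0.29. Of 23 genes linked to mesenchymal transition, 17 fell and none rose (median -2.50); the number that fell was 6 without SSC replicate 1 and 11 without mSSC replicate 1. Snai2, a repressor of E-cadherin, fell by 2.65 ± 0.51, a call lost without SSC replicate 1 (0.075) or mSSC replicate 1 (0.073). Vim, vimentin, stayed bright at 12.32 and 12.02 in mSSC, and its fall of 1.58 ± 0.30 was lost without SSC replicate 1 (0.056) or mSSC replicate 2 (0.066). Fibroblasts express most of these mesenchymal genes, and the fibroblast list moved with them; its part was not tested.

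The largest decreases were in genes of macrophages. Of 28 macrophage genes measured, 25 fell and none rose, with a median of -4.72. Their median level was 10.57 and 9.07 in the SSC arrays and 5.25 and 5.09 in the mSSC arrays, with 8.71 and 7.94 in iSSC between the other groups. C1qb, a chain of complement C1q made by tissue macrophages, read 12.51 and 12.07 in SSC, 9.57 and 8.60 in iSSC and 4.11 and 4.14 in mSSC, a difference of -8.17 ± 0.35 (adjusted p = 0.000299). Lyz2, lysozyme of myeloid cells, read 14.27 and 14.16 in SSC, 13.61 and 12.80 in iSSC and 6.16 and 6.15 in mSSC, a difference of -8.06 ± 0.30 (adjusted p = 0.000214). Lysozyme was thus among the brightest genes of the cultures labelled as germ-line stem cells. Lyz1 fell by 8.27 ± 0.34, but it is a near-identical copy of Lyz2 and their signals cannot be separated with certainty. C1qa fell by 7.69 ± 0.43, C1qc by 6.85 ± 0.39, the protease Ctss by 7.34 ± 0.39, the pore protein Mpeg1 by 6.93 ± 0.38 and the adaptor Tyrobp by 6.79 ± 0.56. Adgre1, a surface marker of mouse macrophages, read 9.13 and 9.06 against 5.27 and 4.11, and the mannose receptor Mrc1 fell by 5.14 ± 0.52. The integrins of leukocytes fell as well, Itgb2 by 5.17 ± 0.61 and Itgam by 2.18 ± 0.25. Not every marker was present in SSC: Cx3cr1 read 4.20 and 4.92 and Cd163 3.63 and 3.54, close to background in all groups, and neither was called.

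Some of the same largest decreases differed between the SSC arrays or across iSSC. Arg1, an arginase of alternatively activated macrophages, read 13.12 and 10.23 in SSC, 6.20 and 4.54 in iSSC and 4.71 and 3.82 in mSSC (-7.41 ± 0.98, adjusted p = 0.00585). F13a1, a coagulation subunit also made by macrophages, read 12.67 and 10.12, then 6.71 and 6.09, then 4.29 and 4.71 (-6.90 ± 0.77). Arg1 and F13a1 were thus low already in iSSC. Ccl6, a chemokine, read 12.44 and 11.89 in SSC, 12.78 and 11.85 in iSSC and 4.79 and 4.12 in mSSC, so that its iSSC level was that of SSC. Gpnmb fell by 6.80 ± 0.33 and Wfdc17 by 6.79 ± 0.58. Lysosomal genes, common to many cells and abundant in macrophages, fell in 14 of 29 cases and rose in 2 (median -1.23), with 8 falling without mSSC replicate 1, and those that rose were 0 or 1 without SSC replicate 1, SSC replicate 2, an iSSC array or mSSC replicate 2. Ctsb, cathepsin B, read 14.20 and 13.95 against 11.54 and 12.05 and fell by 2.28 ± 0.25. Ctsd fell by 2.24 ± 0.25, Psap by 2.17 ± 0.27 and Gusb by 2.09 ± 0.29, less than the macrophage genes, and mSSC still expressed them brightly.

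Genes outside the blood lineage were among the top decreases as well. Aldh1a1, which makes retinoic acid from retinaldehyde, read 12.42 and 12.26 in SSC, 11.67 and 10.01 in iSSC and 3.75 and 3.90 in mSSC, the largest decrease of all genes called (-8.51 ± 0.50, adjusted p = 0.000624). Afp, alpha-fetoprotein, read 10.40 and 10.99 in SSC, 12.61 and 11.77 in iSSC and 3.74 and 3.63 in mSSC (-7.01 ± 0.35, and -3.44 as the mean of its probe sets). For Afp the iSSC arrays were the highest of the 3 groups.

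**Figure D4:**
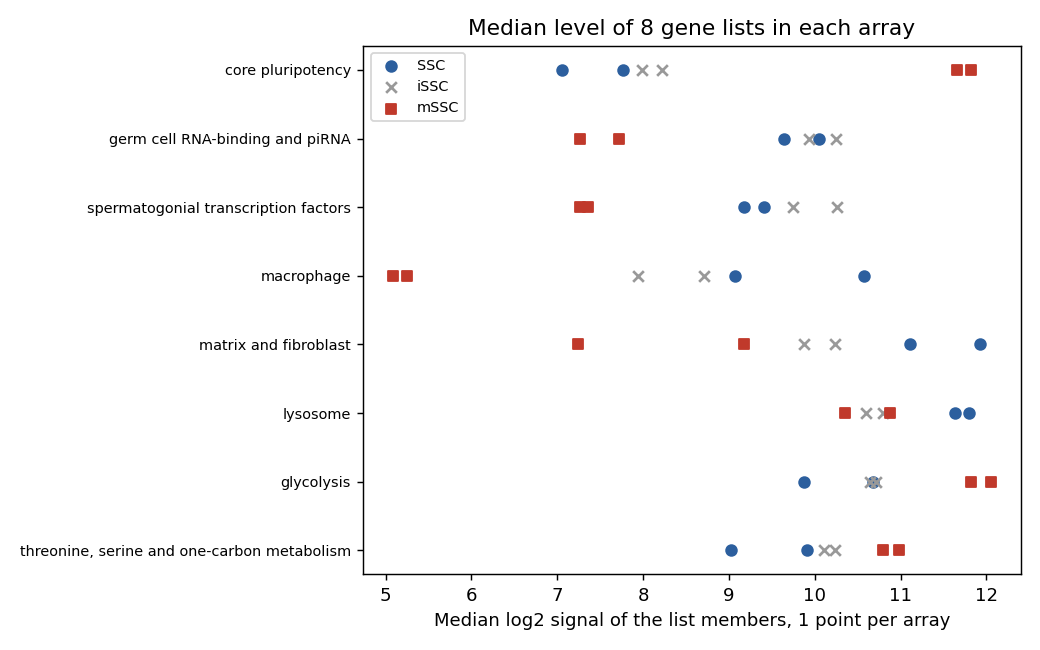
Median log2 signal of the measured members of 8 gene lists in each array, for SSC (blue circles), iSSC (grey crosses) and mSSC (red squares). The macrophage median falls from 10.57 and 9.07 in SSC to 5.25 and 5.09 in mSSC, and the core pluripotency median rises from 7.05 and 7.77 to 11.66 and 11.82; the 2 mSSC arrays differ most in the matrix and fibroblast list, at 7.24 and 9.18.

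Matrix and fibroblast genes fell in 26 of 36 cases and none rose, with a median of -3.13. Embryonic fibroblast feeders are mouse cells and share these genes, and the level of feeder RNA in each array was not measured separately. In the culture steps described, the feeders belong to the colony step, after growth on gelatin. Without SSC replicate 1 the number that fell was 11. The list median was 11.93 in SSC replicate 1 and 11.11 in SSC replicate 2, and the mSSC medians were 7.24 and 9.18. Col6a1, a collagen of connective tissue, read 13.04 and 12.11 in SSC, 9.92 and 10.64 in iSSC and 6.68 and 8.34 in mSSC (-5.06 ± 0.60, adjusted p = 0.00411). Col1a1 fell by 4.48 ± 0.70, Col6a2 by 4.73 ± 0.41, Col4a1, a basement membrane collagen, by 3.03 ± 0.36 and the matrix protein Mgp by 5.04 ± 0.73. Timp3 fell by 3.62 ± 0.37, Mmp2 by 2.27 ± 0.38 and Pdgfrb, a receptor of mesenchymal cells, by 2.00 ± 0.33. In each of these 8 genes both mSSC arrays lay below both SSC arrays. Over all genes, the arrays did not overlap in either direction for 58.6%.

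Other cell types of the testis were followed by their marker genes. Of 24 Sertoli cell genes, 11 fell and 1 rose (median -1.26), with 6 falling without mSSC replicate 1. Their median level was 7.15 and 7.56 in SSC, 6.16 and 6.19 in iSSC and 5.73 and 5.92 in mSSC. The summed linear signal was 21693 and 25782 in SSC, 10860 and 6692 in iSSC and 11396 and 13071 in mSSC. That sum is weighted to the brightest members and includes the 1 gene that rose. Sum and median thus order iSSC and mSSC differently, and the sum does not measure how much Sertoli signal mSSC kept. Clu, clusterin, read 13.20 and 13.42 against 9.41 and 9.14 (-4.04 ± 0.41, adjusted p = 0.00271). Gata4, a factor of gonadal somatic cells, fell by 1.47 ± 0.23, Sox9 by 1.96 ± 0.28 (-0.92 as the mean of its probe sets, whose signs differ) and Wt1 by 2.51 ± 0.46, a call lost without mSSC replicate 1 (0.057) or 2 (0.051). The Sertoli hormone gene Amh and the receptor gene Fshr were not called (0.22 ± 0.32 and -0.05 ± 0.31), and Fshr was dim in SSC at 5.74 and 4.93. Of 10 Leydig cell genes, 1 fell and none rose, and the number was 0 without SSC replicate 1 or mSSC replicate 1 and 3 without an iSSC array. Star, which brings cholesterol into mitochondria, read 9.80 and 8.27 in SSC and 6.84 and 6.46 in mSSC. It was not called (-2.38 ± 0.89, adjusted p = 0.116), but was called in the 4 SSC and mSSC arrays alone (0.048). That is the same fit as without 1 iSSC array. Cyp17a1 was dim in both groups (0.32 ± 0.23). Peritubular smooth muscle genes fell in 5 of 14 cases (3 without mSSC replicate 1), with Actg2 falling by 3.25 ± 0.43 and Mylk by 3.54 ± 0.32 (-2.09 as the mean of its probe sets). Of 16 endothelial genes, 4 rose and 1 fell; those that rose were 2 without SSC replicate 2, an iSSC array or mSSC replicate 1 and 7 after median centring, and those that fell were 2 without mSSC replicate 2. Pecam1, also counted in the naive pluripotency list, rose by 3.32 (2.31 without mSSC replicate 2). Esam rose by 1.41 ± 0.20, and Erg, an endothelial Ets factor, fell by 4.31 ± 0.45 (-2.76 as the mean of its probe sets).

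Developmental regulators were mixed. Of 33 Hox genes, 11 fell and none rose (median -0.17, which is 0.08 after median centring, since the other Hox genes lay near 0). The decreases were concentrated in neighbours of the HoxB cluster, a run of 7 adjacent measured genes called lower: Hoxb1, Hoxb2, Hoxb3, Hoxb4, Hoxb5, Hoxb5os and Hoxb6. A further HoxB pair of neighbours, Hoxb13 and Hoxb9, was also called lower, with differences from -2.99 to -2.05. Hoxb6 read 8.39 and 9.26 in SSC, 9.34 and 10.29 in iSSC and 4.28 and 3.43 in mSSC (-4.97 ± 0.47, adjusted p = 0.00212). Hoxb5 read 7.53 and 7.69 against 4.17 and 4.07 (-3.49 ± 0.20, adjusted p = 0.000555). Hoxb2 fell by 3.11 ± 0.29, Hoxb4 by 2.58 ± 0.27, Hoxb1 by 1.61 ± 0.24, Hoxb3 by 1.36 ± 0.24 (-2.40 as the mean of its probe sets, and adjusted p = 0.053 without mSSC replicate 2) and the antisense gene Hoxb5os by 1.44 ± 0.24. Hoxb5os overlaps the cluster, so its signal may not be independent of its partner's. In the other clusters Hoxc8 fell by 3.01 ± 0.41 and Hoxd8 by 1.89 ± 0.27.

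Zic1, a neural and mesodermal zinc-finger factor, read 8.61 and 10.60 in SSC and 3.50 and 4.56 in mSSC (-5.57 ± 0.67, adjusted p = 0.00423), while its relative Zic5 read 3.36 and 3.33 against 8.62 and 7.43 (4.68 ± 0.39, adjusted p = 0.00149). The 2 family members thus moved in opposite directions. Sox family members differed in the same way: of 19 measured, 2 rose (5 after median centring and 4 as means of probe sets) and 3 fell, with Sox2 and Sox15 (2.79 ± 0.28) higher and Sox3, expressed in undifferentiated spermatogonia, lower (-2.74 ± 0.32, and -1.61 as the mean of its probe sets). Neurod1, a neuronal factor, rose by 2.13 ± 0.28 to 6.59 and 6.06. Of 21 endoderm genes, 4 rose and 5 fell (median 0.41, and -1.27 when the dimmer genes were left out); those that fell were 3 without SSC replicate 1, an iSSC array, mSSC replicate 1 or mSSC replicate 2 or after median centring, and those that rose were 1 without mSSC replicate 2. Amn rose by 1.81 ± 0.25. Of 22 trophoblast genes, 3 rose and none fell, 2 without SSC replicate 1, SSC replicate 2, an iSSC array or mSSC replicate 1, and 5 without mSSC replicate 2. Tfap2c, a factor of trophoblast and germ cells, rose by 4.40 ± 0.50, from 5.24 and 4.98 to 10.25 and 8.77. Cdx2, the trophoblast factor, stayed dim (0.36 ± 0.22, adjusted p = 0.296). Foxf1, a mesodermal factor, fell by 2.88 ± 0.41 (-1.48 as the mean of its probe sets). Of 31 imprinted genes, 5 rose and 6 fell, 3 rising without an iSSC array or mSSC replicate 1 and 3 falling without SSC replicate 1 or mSSC replicate 1. Igf2, the growth factor expressed from the paternal copy, read 11.71 and 12.67 against 7.83 and 9.39 (-3.58 ± 0.55, and -2.14 as the mean of its probe sets), and Phlda2 rose by 3.12 ± 0.24.

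**Figure D5:**
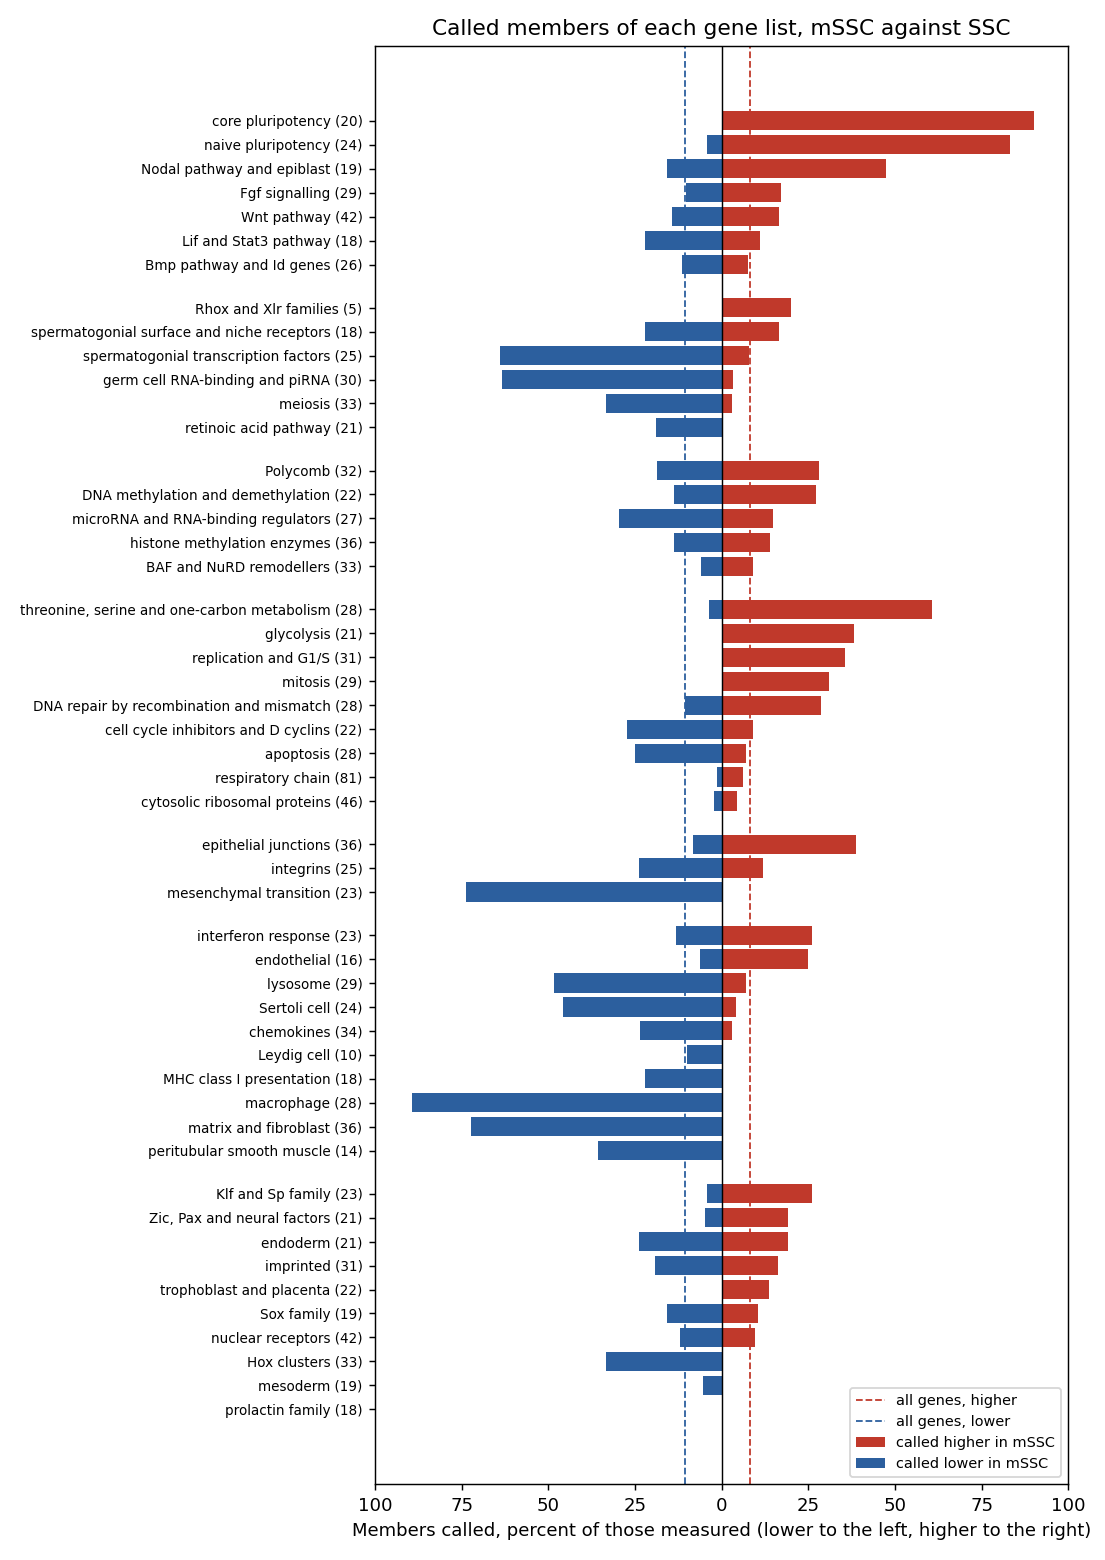
Share of the measured members of each of 50 gene lists called higher in mSSC (red, to the right) or lower (blue, to the left), with the number measured in brackets. Dashed lines are the shares over all 18194 genes, 8.22% higher and 10.6% lower; the core and naive pluripotency lists reach furthest to the right and the macrophage list furthest to the left.

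Adjacent genes were called the same way in several places. Among 18146 measured genes placed on the RefSeq map, 22 runs of at least 3 neighbours rose and 37 fell. Runs of at least 4 numbered 3 and 6, and of at least 5, 0 and 2. After HoxB the longest was a run of 5 on the chemokine locus: Ccl6, Ccl3, Ccl4, Wfdc17 and Wfdc18. Ccl3 fell by 5.13 ± 0.26, Ccl4 by 1.95 ± 0.38 and Wfdc18 by 1.46 ± 0.36, the last with a call lost without any 1 of the SSC or mSSC replicates (adjusted p = 0.064 to 0.14) and Ccl4's lost without mSSC replicate 2 (0.068). Among rises, Gdf3, Dppa3, Nanog and Slc2a3 lay next to each other. Gdf3, a Tgf-beta ligand, rose by 4.16 ± 0.37. The 3 chains of C1q were one of the runs that fell, as were Fcgr2b, Fcgr4 and Fcgr3, the Fc receptors of macrophages. The probe sets of Fcgr2b differ in sign. The chemokine and Fc receptor genes are related copies, so their signals are less certain, and whether such runs are more frequent than in another order of the genes was not tested.

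Of 23 interferon response genes, 6 rose and 3 fell (median 0.52). The number that rose was 2 without SSC replicate 1 or mSSC replicate 2, 3 without SSC replicate 2 and 4 without an iSSC array, and those that fell were 0 without SSC replicate 1 and 1 without an iSSC array or mSSC replicate 1. Ifitm1, also expressed in primordial germ cells, read 9.34 and 8.29 against 12.26 and 11.24 and rose by 2.93 ± 0.47 (adjusted p = 0.00972). Erap1, which trims peptides for class I presentation, fell by 3.76 ± 0.23, from 9.67 and 10.08 to 6.24 and 6.00. Of 18 genes of that presentation pathway, 4 fell and none rose. Of 28 apoptosis genes, 2 rose and 7 fell, and those that fell were 3 without SSC replicate 1 and 2 without mSSC replicate 1, while those that rose were 1 without SSC replicate 1, an iSSC array or mSSC replicate 1. After median centring 6 rose and 5 fell, so the balance depended on the scaling. Casp12 fell by 2.51 ± 0.37.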

How the data were processed

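RNA was extracted with Trizol and amplified and biotin-labelled with NuGEN kits from 10 ug total RNA, per the labels' protocols, and hybridised to Affymetrix arrays. The authors deposited log2 signals made with RMA, per the submitters' processing notes and the value table; no version or software for RMA is stated there. Of 45101 probe sets, 34958 had 1 gene symbol, 932 several and 9211 none in the platform annotation; each of 18194 genes was read from its probe set with the highest mean. The deposited values were used without further normalization, offset or filter.

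The 6 arrays were fitted with limma 3.58.1 in R 4.3.3 (lmFit and eBayes, 1 mean per group, 3 residual degrees of freedom), and mSSC minus SSC was tested with Benjamini-Hochberg adjustment over all genes at 0.05. The script was tested on simulated data. Differences are given with the moderated SE. The small number of arrays limits the precision.

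Genes named include the 15 largest called changes each way among genes whose SSC and mSSC arrays do not overlap. Also named were the 4 lowest p-values and up to 4 defining members in each of 50 lists, and members of the neighbour runs. A few others from the lists (Sall4, Lin28a, Mael, Rnf2 and the like) were named after their values were seen. The gene sets, lists and rules were chosen with earlier results of these data known. Lists are described by counts and medians with no set test. Replicate numbers in the labels were not taken as a pairing. The correlation of same-numbered deviations was 0.0683 between SSC and mSSC, which cannot show whether the arrays were paired. Alternatives were the replicate block, other arrays, variance priors, scalings, probe-set rules and each array left out.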

Additional observations from a re-analysis of the deposited data

How the results depend on the processing

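Across settings the number of called genes ranged from 1966 to 3959, and no gene called both in the fit reported and in an alternative changed direction except 8 under the probe set with the highest variance. Fitting the 4 SSC and mSSC arrays alone gave 1966 called genes (816 higher, 1150 lower), and leaving out 1 array gave 1966 to 3462 (816 to 1432 higher, 1150 to 2030 lower). Centring array medians gave 2527 higher. At an adjusted p under 0.01, 1102 genes were called, 469 higher and 633 lower. The replicate block gave 3428 genes, 3078 of them shared; same-numbered arrays deviated together at 0.0683, 0.12 and 0.171 in the 3 group pairs, so the numbers were not taken as a pairing. With the block 5 DNA repair genes rose, 6 Bmp and Id genes fell, and Star was called (0.042). Leaving out the dimmer genes removes list members, so list counts are smaller by construction. Signs turned for some genes. From the probe set with the highest variance, Uqcr10 gave -1.06 and Klf3 -2.31, both called higher in the fit reported (1.03 and 2.45) and not called there, and Dnmt1, not called, gave 0.09. After median centring, Dnmt1 gave 0.13, Sohlh2 0.12, Cd163 0.03 and Fshr 0.20. Leaving out 1 array gave ranges of -0.52 to 0.25 for Sohlh2, -0.34 to 2.79 for Kit, -0.66 to 0.06 for Cx3cr1, -0.18 to 0.61 for Amh, -0.46 to 0.35 for Fshr, -2.05 to 0.06 for Prl8a2 and -3.65 to 0.45 for Prl3a1.

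The causes were not tested. With 2 arrays a group and 3 residual degrees of freedom, a gene that was not called is not shown to be equal. Signals near the lower quartile set no firm level, so differences against them are uncertain in size.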

Other observations

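Of 10092 probe sets with no single gene symbol, 330 were called (3.27%), 140 higher and 190 lower in mSSC. They were fitted and adjusted separately from the named genes. The 18.8% of named genes came from their brightest probe sets under their own adjustment, so these shares are not directly comparable. Among called genes with several probe sets, every probe set had the sign of the one used in 1359 of 1907, and among genes not called in 4000 of 7105. The SSC arrays differed by over 2-fold from each other in 1864 genes and the mSSC arrays in 1403.

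Nuclear receptors, transcription factors that respond to hormones and lipids, had counts near the background: of 42 measured, 4 rose and 5 fell. Those that fell were 0 without mSSC replicate 1, 2 without SSC replicate 1, 3 without an iSSC array or mSSC replicate 2 and 8 without SSC replicate 2. Of 23 Klf and Sp factors, 6 rose and 1 fell (median 0.45); the 1 was 0 without mSSC replicate 1 and 3 without SSC replicate 2.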
